A study of Rattus norvegicus with 24 samples.

Results

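The genes described here are 100 of the 32883 genes counted in the rostral posterior hypothalamic (rPH) region of rats, selected on measured values because their group mean was lower after 7 loud noise exposures than in each other group. The animals were young adult male Sprague-Dawley rats, 6 in each of 4 groups, with daily handling and time in a sound-attenuating chamber over 7 days. The control (C) group heard only background fan noise, and the acute stress (AS), repeated stress 3 (RS3) and repeated stress 7 (RS7) groups received 1, 3 or 7 daily exposures of 30 min to white noise at 100 dBA. Tissue blocks were taken 24 h after the last exposure or control session. The choice used 20 rats, 5 per group, because the study left out 1 library per group for few reads or for adapter sequence and base content. Levels are given as CPM, the count of a gene scaled to a common library total. Of the genes counted, 12415 had a mean of 5 CPM or more, and in 8662 of these the RS3 mean lay within 0.1 on the log2 scale of the midpoint of C and AS. The 100 genes with the largest drop, the lowest of the C, AS and RS3 means minus the RS7 mean on the log2 scale, were taken. Since the means of all 4 groups chose the genes, their values in those 20 rats are a description without a test.

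The posterior hypothalamus is known for its part in autonomic, endocrine and behavioral responses to stressors, and repeated exposure to the same moderate stressor is known to reduce such responses, a form of habituation. The genes with a symbol in this set encode proteins of several kinds: secreted ligands and protease inhibitors, membrane receptors, ion channels, nuclear factors, and enzymes of lipid and nucleotide metabolism. In neurons, peptide receptors and voltage-gated channels at the cell surface are known to set how a cell responds to its inputs.

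Symbols were known for 31 of the 100 genes, and 69 were known by Ensembl identifier only. A symbol was known only for genes that an earlier test on the same rats had called different between groups. The genes named below are therefore not a random share of the 100. Their median drop was 0.34, beside 0.29 for the genes without a symbol.

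The libraries of the 20 rats held between 8087697 and 16947298 counts, with medians of 11298078 in C, 11858909 in AS, 12188012 in RS3 and 14189794 in RS7. The 4 libraries left out stood apart. Rats 20 (C), 18 (AS), 8 (RS3) and 1 (RS7) held 10227122, 4744531, 9546391 and 14299345 counts, of which the 10 most counted genes took 25.1%, 46.3%, 24.9% and 33.8%. In the retained rats that share ran from 12.4% to 20.3%, and it was highest in C rats 21 (20.1%) and 22 (20.3%) and RS7 rat 4 (18.8%).

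The drop of the 100 genes was small for most of them. Its median was 0.32, a 1.25-fold difference, and 10 genes exceeded 0.5 while 45 were under 0.3. The last genes inside the limit of 100 were Cacna1i, with a drop of 0.25, and ENSRNOG00000025587, also with 0.25, and the first outside was ENSRNOG00000004171, with 0.24, followed by another gene at 0.24. So the edge of the set is not a natural boundary. The genes were mostly of low abundance: their median level was 11.1 CPM, beside 33.6 CPM for the 8662 genes that met the RS3 condition, and 45 of them were under 10 CPM. Their median count per rat was 137 reads, and the lowest median count per rat of a single gene among them was 59. Their spread between rats of the same group was also wider, with a median SD of 0.23 on the log2 scale, beside 0.12 for those 8662 genes. The opposite pattern was rarer with library totals, where 7 of the 8662 genes had an RS7 mean as far above the highest other group mean as the last of the 100 was below the lowest. That number was 66 with TMM-scaled library sizes, a scaling chosen for this count after the values were seen, so how rare the opposite pattern was depended on the scaling.

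Per rat, the median deviation of the 100 genes from their own 20-rat mean, on the log2 scale, was −0.14, −0.22, −0.21, −0.46 and −0.32 in RS7 rats 2 to 6. In RS3 rats 7, 9, 10, 11 and 12 it was 0.26, −0.17, 0.07, 0.22 and −0.03. The RS7 rats were thus low as a group, but RS3 rat 9 lay among them, below RS7 rat 2. The AS rats averaged 0.13 ± 0.15 (SD, n = 5) and the C rats 0.09 ± 0.10 (SD, n = 5), with C rat 22 and AS rats 13 and 15 slightly below 0. Part of these deviations was shared by all genes. Relative to the median of all genes of 5 CPM or more in the same rat, RS7 rats 2 to 6 were at −0.16, −0.22, −0.10, −0.43 and −0.33, RS3 rat 9 was at −0.17 and C rat 22 at 0.08. On that scale RS3 rat 9 lay below RS7 rats 2 and 4. Of the 100 genes, 91 had their lowest value in an RS7 rat, as the choice favors, where 33.1% of the 8662 genes that met the RS3 condition did. The lowest rat was rat 5 in 49 of them, rat 6 in 22 and rat 4 in 15. The name of the set, genes that are low only after 7 exposures, therefore holds for group means and not for each rat.

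**Figure D1:**
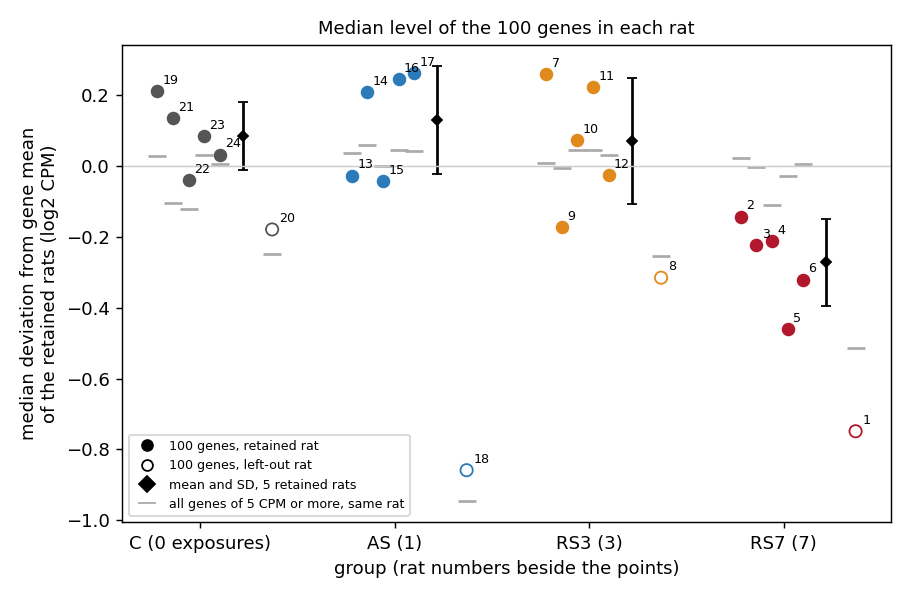
Median deviation of the 100 genes from their mean over the 20 retained rats (log2 CPM, vertical axis) for each rat of the C, AS, RS3 and RS7 groups, with rat numbers beside the points. Filled points are retained rats, open points the 4 left-out rats, diamonds with bars the mean and SD of 5 retained rats, and grey dashes the median deviation of all genes of 5 CPM or more in the same rat; RS3 rat 9, at −0.17, lies within the range of the RS7 rats.

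Only 1 of the 100 genes had all 5 RS7 rats below all 15 others, where 0.0483% of the 12415 genes did so, and the choice of genes favors that pattern. This gene was Npr2 (ENSRNOG00000015991), the guanylyl cyclase receptor for C-type natriuretic peptide, which makes cyclic GMP when the peptide binds. Npr2 stood at 48.7, 52.1, 42.1, 47.1 and 43.0 CPM in C rats 19, 21, 22, 23 and 24, and at 45.3, 50.6, 47.2, 55.2 and 55.7 CPM in AS rats 13 to 17. It stood at 55.0, 46.6, 49.4, 50.8 and 40.4 CPM in RS3 rats 7, 9, 10, 11 and 12, and at 40.3, 38.0, 40.2, 30.0 and 33.7 CPM in RS7 rats 2 to 6. The separation was narrow, since the lowest RS3 rat and the highest RS7 rat nearly met.

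Among secreted and cell-surface proteins, Slit2 (ENSRNOG00000003840) encodes a guidance ligand that repels growing axons through Robo receptors. In the rat order given for Npr2, Slit2 was at 35.6, 29.7, 24.6, 26.4 and 31.0 CPM in C and 28.4, 32.4, 25.5, 37.4 and 36.6 CPM in AS. It was at 34.9, 20.2, 28.2, 32.3 and 28.8 CPM in RS3 and 26.8, 22.4, 25.03, 14.9 and 22.7 CPM in RS7. The groups overlapped: RS3 rat 9 was lower than 4 of the 5 RS7 rats, and only rat 5 lay below every rat of the other groups. Spint2 (ENSRNOG00000020636), a Kunitz-type inhibitor of membrane and secreted serine proteases, was at 24.5, 19.2, 18.5, 19.4 and 19.7 CPM in C and 22.9, 24.0, 17.3, 23.4 and 25.4 CPM in AS. It was at 25.6, 17.7, 21.9, 24.1 and 21.0 CPM in RS3 and 17.3, 17.1, 17.7, 11.1 and 13.4 CPM in RS7. AS rat 15 and RS3 rat 9 reached the RS7 range here too. Cd24 (ENSRNOG00000000321), a small glycoprotein anchored to the cell surface and known from immature neurons, was at 20.7, 21.1, 20.6, 17.7 and 18.1 CPM in C and 12.7, 18.2, 13.2, 23.7 and 20.5 CPM in AS. It was at 27.3, 13.2, 17.3, 20.3 and 15.1 CPM in RS3 and 15.0, 13.0, 14.6, 9.87 and 12.5 CPM in RS7. The C rats lay above all RS7 rats for Cd24, while AS rats 13 and 15 and RS3 rat 9 were as low as the RS7 rats.

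Prss23, a secreted serine protease, averaged 9.15 ± 1.14, 10.6 ± 2.48, 9.73 ± 3.35 and 6.61 ± 0.966 CPM in C, AS, RS3 and RS7 (mean ± SD, n = 5 each, as for all means below). Lgals3bp, a secreted glycoprotein that binds galectin-3 and is known to be induced by interferon, averaged 12.7 ± 1.38, 12.4 ± 1.71, 12.4 ± 3.65 and 8.35 ± 2.13 CPM. Fgl2, a fibrinogen-related protein with roles in coagulation and immune regulation, averaged 12.3 ± 2.66, 14.9 ± 2.15, 12.7 ± 2.65 and 9.78 ± 1.17 CPM. The low RS7 means of these 3 genes follow from the choice, and in each of them the ranges of single rats overlapped between RS3 and RS7.

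Channel genes in the set were Scn9a and Cacna1i. Scn9a (ENSRNOG00000006639) encodes the sodium channel Nav1.7, which amplifies small depolarizations. In the same rat order, Scn9a was at 45.5, 47.2, 53.7, 38.3 and 48.0 CPM in C and 36.4, 44.7, 40.0, 46.7 and 52.3 CPM in AS. It was at 56.1, 30.9, 44.5, 40.8 and 39.8 CPM in RS3 and 37.6, 36.1, 36.6, 25.8 and 33.3 CPM in RS7. Here AS rat 13 and RS3 rat 9 lay within the RS7 range. Cacna1i (ENSRNOG00000060407), a T-type calcium channel that opens near the resting potential and supports burst firing, averaged 40.4 ± 2.72, 42.8 ± 2.74, 41.0 ± 5.09 and 34.0 ± 2.22 CPM. Of the 28 voltage-gated channel genes listed for this tissue, 15 had an identifier and 2 were among the 100. Within groups, 7 of the 15 correlated positively and 8 negatively with the mean of the 100 genes, so the channel genes did not share 1 pattern. Scn1a and Scn8a encode sodium channels of neurons and were outside the 100. Scn1a averaged 342 ± 42.5, 335 ± 28.3, 396 ± 41.7 and 410 ± 47.6 CPM, highest in RS7, and Scn8a averaged 176 ± 14.8, 170 ± 15.8, 189 ± 16.3 and 209 ± 11.9 CPM.

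Nuclear proteins included Rxrg, the gamma form of the retinoid X receptor, which pairs with other nuclear receptors. Rxrg averaged 9.80 ± 1.14, 9.56 ± 1.31, 9.19 ± 1.58 and 6.36 ± 1.53 CPM in C, AS, RS3 and RS7. Greb1, a cofactor of the estrogen receptor, averaged 7.85 ± 0.547, 6.73 ± 1.26, 7.06 ± 0.436 and 5.03 ± 0.852 CPM. Zfp383, a zinc finger protein, averaged 14.4 ± 1.54, 14.5 ± 0.788, 14.7 ± 1.17 and 11.8 ± 1.25 CPM. Irf1 (ENSRNOG00000008144), a transcription factor of the interferon response, was near the lower limit of abundance. In the same rat order, Irf1 was at 6.51, 5.93, 5.20, 4.86 and 4.51 CPM in C and 6.00, 6.12, 5.45, 7.40 and 6.41 CPM in AS. It was at 6.19, 5.96, 5.26, 6.40 and 5.17 CPM in RS3 and 4.02, 5.29, 4.17, 3.45 and 4.45 CPM in RS7. All RS7 rats except rat 3 lay below every rat of the other groups for Irf1.

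Esyt3 (ENSRNOG00000022704), an extended synaptotagmin that tethers the endoplasmic reticulum to the plasma membrane and moves lipids between them, had the largest drop of the genes with a symbol, 0.91 or 1.87-fold. Esyt3 was at 5.26, 6.80, 5.58, 5.14 and 4.51 CPM in C and 3.41, 7.48, 5.45, 6.83 and 7.42 CPM in AS. It was at 9.66, 3.78, 4.39, 6.92 and 4.27 CPM in RS3 and 3.24, 2.64, 4.23, 2.65 and 1.80 CPM in RS7. All RS7 rats except rat 4 lay below the other 15, and the RS3 rats spread widely. The gene with the largest drop of all, 1.70, had no symbol and varied still more, from 0.708 to 13.2 CPM within RS3 alone. Mgst1, a microsomal glutathione transferase that protects membranes from oxidized lipids, averaged 12.2 ± 2.27, 13.5 ± 2.59, 13.3 ± 1.74 and 9.42 ± 2.18 CPM in C, AS, RS3 and RS7. Hspb8, a small heat shock chaperone, averaged 15.9 ± 2.50, 18.5 ± 2.65, 17.4 ± 1.81 and 12.7 ± 1.45 CPM. Wscd2, a Golgi sulfotransferase-like protein, averaged 6.35 ± 0.893, 7.57 ± 1.61, 6.87 ± 1.12 and 4.47 ± 0.827 CPM. LOC100910996, a gene without an assigned name, averaged 12.8 ± 1.53, 11.8 ± 1.65, 12.1 ± 2.88 and 8.87 ± 1.36 CPM.

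The other 13 genes with a symbol were named after their values were seen and had drops from 0.25 to 0.35. Baiap3, which acts in dense-core vesicle traffic, was by far the most abundant of them, at 140 ± 19.5, 169 ± 24.0, 148 ± 24.0 and 109 ± 20.6 CPM. Slc27a3, Pla2g2c and Anxa7 act on fatty acids, phospholipids and membranes, Stom encodes a membrane scaffold, and Nbeal2 is needed for granule formation in platelets. Ampd2 is an AMP deaminase, Qpct cyclizes the first residue of peptide hormones, Ssh3 belongs to the cofilin phosphatases and Sbk1 to the kinases. Rtbdn encodes a riboflavin-binding protein, and Zfta and Nynrin encode a zinc finger protein and a nuclease-domain protein.

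**Figure D2:**
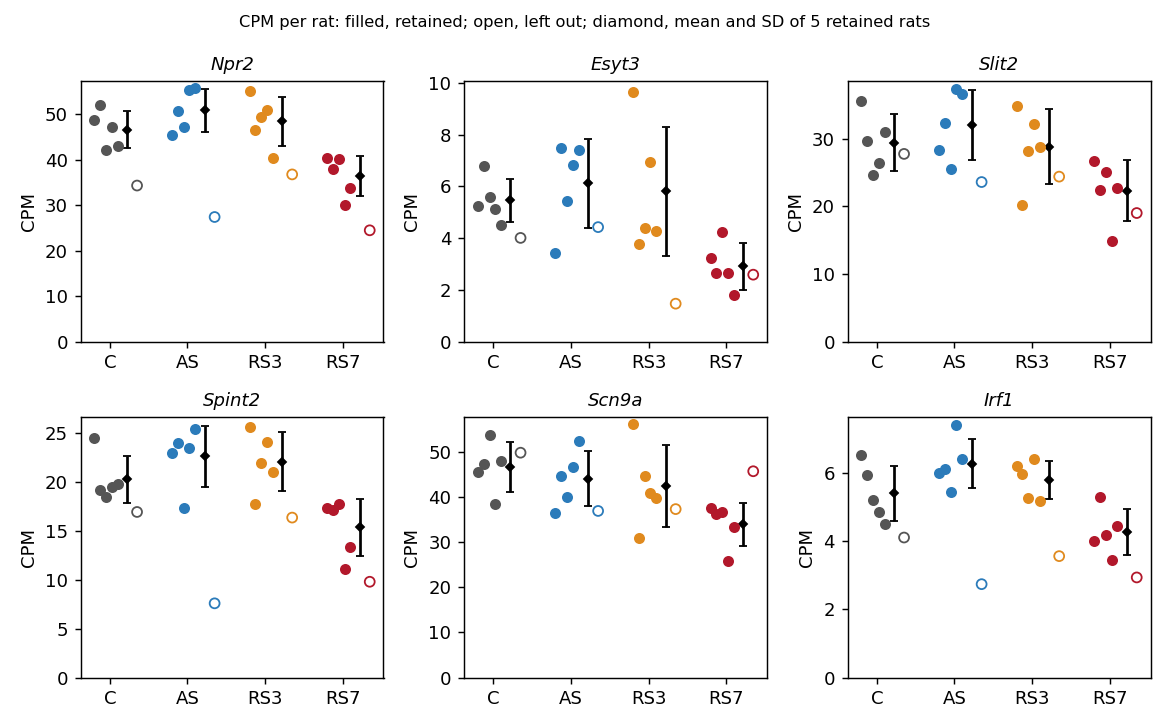
CPM (vertical axes, from 0) of Npr2, Esyt3, Slit2, Spint2, Scn9a and Irf1 in each rat of the C, AS, RS3 and RS7 groups. Filled points are retained rats, open points left-out rats, and diamonds with bars the mean and SD of 5 retained rats; only for Npr2 do the filled RS7 points all lie below the filled points of the other groups, by a narrow margin (40.3 against 40.4 CPM).

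The choice used the C and AS means as well, and it favors genes in which they are close, so C versus AS is also given as counts without reading anything from them. EdgeR's quasi-likelihood test, fitted to 16202 genes with all 4 groups and adjusted by Benjamini-Hochberg over all of them, called 0 genes lower and 0 higher in AS than in C, each 0% of those tested. All 100 genes passed its filter on low counts, so 0 of the 100 were called, and the DESeq2 Wald test also called 0 genes. Without adjustment, 882 genes were lower and 743 higher in AS by edgeR at p of 0.05, and 865 and 727 by DESeq2. Of the 100 genes edgeR then gave 2, both lower: Greb1, with a log2 difference AS minus C of −0.29, and Rtbdn, with −0.35, which was singled out after its values were seen. DESeq2 then gave 2 of the 100 as well. The median AS minus C difference of the 100 genes was −0.01 in the edgeR fit, beside −0.0023 for all genes tested. As a difference of log2 group mean CPM it was 0.06, beside 0.06 for the 8662 genes that met the RS3 condition.

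The contrasts of RS7 and RS3, on which the genes were ranked or limited, are given in the same way, since the choice itself sets how many of the 100 are lower in RS7 and keeps RS3 near C and AS. They share rats: those of RS7 share the RS7 rats, and those with C or AS the same C or AS rats. In the same edgeR fit, 13 of the 100 genes were called lower in RS7 than in AS, where 78 of all genes tested were (0.481%). Greb1 was the only gene of the 100 called lower in RS7 than in C, where 6 of all genes tested were (0.037%). None of the 100 was called in RS7 versus RS3, RS3 versus C or RS3 versus AS by edgeR, where 0% of all genes were called lower. The DESeq2 Wald test called none of them there either. It gave an adjusted p to 77 of the 100 in RS3 versus C, where it called 18 of 11426 genes lower and 20 higher, and it called 1 of 25606 genes higher in RS3 versus AS and 0 in RS7 versus RS3. Without adjustment, edgeR gave 60 of the 100 lower in RS7 than in RS3, where 620 of 16202 genes were, and DESeq2 gave 61, where 621 of 25606 were. In RS3 versus C, where edgeR gave 1360 genes lower and 1279 higher without adjustment and DESeq2 1313 and 1269, both gave 0 of the 100. In RS3 versus AS, where edgeR gave 364 lower and 383 higher and DESeq2 352 and 391, both again gave 0, as the limit on RS3 favors. The DESeq2 Wald test called 21 of the 100 lower in RS7 than in AS, where 173 of 15338 genes were, and 13 lower in RS7 than in C, where 125 of 14360 were. Without AS rat 17, edgeR called 0 of the 100 lower in RS7 than in AS, where 5 of 16308 genes were. Without RS7 rat 4, it called 16 lower in RS7 than in C, where 277 of 16326 were, so these counts turned on single rats.

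The rats left out allow the same measure in animals that did not choose the genes, with 1 rat per group and so no replicate and no test. RS7 rat 1 was lower than each of RS3 rat 8, AS rat 18 and C rat 20 in 34 of the 100 genes, where 9.46% of the 12415 genes of 5 CPM or more were. It was lower by 1.2-fold or more in 17 of the 100, where 1.87% of those genes were, and 8 with TMM-scaled library sizes, where 1.86% were. These libraries differ in how much a few genes take, and that share lowers the CPM of all other genes by construction. The 100 genes were also less abundant and varied more within groups than the genes that met the RS3 condition. How far this raised the counts above was not tested. Rat 1 minus rat 20 had a median log2 difference of −0.54 over the 100 genes and −0.26 over all genes of 5 CPM or more. Rat 1 minus rat 8 gave −0.45 and −0.25, and rat 1 minus rat 18 gave 0.19 and 0.42. In each pair the 100 genes thus lay lower in the RS7 rat relative to the other genes. However, rat 8 minus rat 20 gave −0.18 for the 100 genes and −0.01 for all genes, a difference of the same kind between rats of the RS3 and C groups.

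Of the 31 genes with a symbol, 4 were lower in rat 1 than in each other left-out rat by 1.2-fold or more, and genes meeting that limit were named for it. With TMM-scaled library sizes 2 met it, Fgl2 and Zfta, so only Fgl2 met it under both. Slit2 was at 27.8, 23.6, 24.4 and 19.0 CPM in rats 20, 18, 8 and 1. Mgst1 was at 12.1, 11.8, 8.07 and 5.66 CPM, Fgl2 at 10.6, 7.17, 10.1 and 4.55 CPM, and Zfp383 at 9.48, 8.64, 11.2 and 6.92 CPM. Scn9a was higher in rat 1 than in rats 18 and 8, with 49.8, 36.9, 37.3 and 45.7 CPM, and Esyt3 was lowest in RS3 rat 8, at 4.01, 4.43, 1.47 and 2.59 CPM.

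Beyond the group means, the 100 genes varied together from rat to rat, in the same 20 rats that chose them. After group means were subtracted from log2 CPM, each gene was correlated with the mean of the other 99 over the 20 rats. The median Pearson r was 0.65, and 72 genes exceeded 0.5 while 3 were at or below 0. The other 8562 genes that met the RS3 condition had a median r of 0.12 with the mean of the 100, and 10.2% of them exceeded 0.5. The choice favors genes low in the same RS7 rats (49 were lowest in rat 5), which can by itself raise their r. The 100 also had a wider spread within groups than the genes that met the RS3 condition. The r values are therefore a description without a test. Cd24 (r = 0.91), Slit2 (0.87), LOC100910996 (0.85) and Npr2 and Baiap3 (both 0.83) followed the common course most closely among genes with a symbol, and Cacna1i (0.26), Zfp383 (0.32) and Fgl2 (0.34) followed it little. The points share library and tissue block, and in bulk tissue fewer cells of a type and less RNA per cell cannot be told apart.

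Genes known from the dorsal thalamus, which adjoins the hypothalamus, varied against the 100 genes. No marker list could be read as a whole, because at most 53.6% of the genes of a list had an identifier. Those that did had been called different between groups by an earlier test on the same rats. Group differences in the levels and sums of matched genes, here and in all lists, follow from that and are a description only. Of 15 dorsal thalamus genes, 8 had an identifier: Tcf7l2, Lef1, Rora, Synpo2, Slc17a6, Plekhg1, Ntng1 and Foxp2. All 8 correlated negatively with the mean of the 100 genes within groups, with a median r of −0.64. Their summed level was 1615 ± 224 CPM in C, 1680 ± 241 in AS, 1930 ± 260 in RS3 and 2147 ± 231 in RS7, with Slc17a6, the vesicular glutamate transporter, the most abundant. It was highest in RS7 rat 5 (2513 CPM), in which the 100 genes were lowest, and within RS3 in rat 9 (2188 CPM). The values per rat were 1604, 1264, 1589, 1840 and 1776 CPM in C and 1960, 1640, 1897, 1457 and 1444 CPM in AS. They were 2037, 2188, 1967, 1495 and 1964 CPM in RS3 and 2051, 2186, 1892, 2513 and 2091 CPM in RS7. None of the 8 was at 0 in any group, and their part in the low RS7 values of the 100 genes was not tested.

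**Figure D3:**
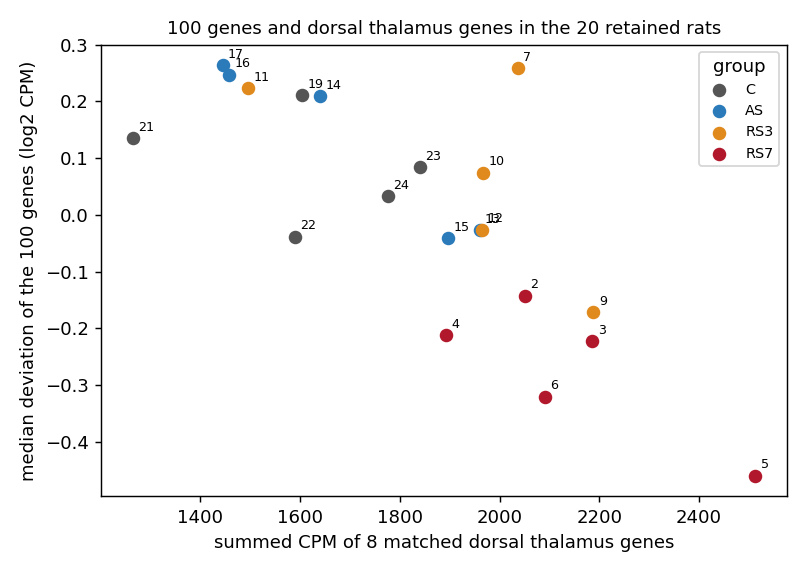
Summed CPM of the 8 dorsal thalamus genes with an identifier (horizontal axis) against the median deviation of the 100 genes from their 20-rat mean (log2 CPM, vertical axis) in the 20 retained rats, colored by group, with rat numbers. RS7 rat 5 lies furthest to the lower right, at 2513 CPM and −0.46, and RS3 rat 9 lies among the RS7 rats.

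Hypothalamic peptide and receptor genes had positive r, near 0 for some of them. Of 29, 11 had an identifier, Npr2 being the only one among the 100, and the r of the 11 with the mean of the 100 genes within groups had a median of 0.55. That mean includes Npr2 (r = 0.83), and Prlhr (0.0085), Oxt (0.09), Trh (0.15) and Avp (0.19) were near the 0.12 median of other genes. Calcr, the calcitonin receptor, averaged 38.4 ± 7.00, 36.0 ± 7.40, 29.5 ± 10.5 and 16.5 ± 8.22 CPM in C, AS, RS3 and RS7 (r = 0.77). Penk, which encodes the enkephalin precursor, averaged 58.6 ± 15.1, 55.2 ± 13.2, 45.1 ± 10.6 and 32.0 ± 7.54 CPM (r = 0.70). Unlike the 100 genes by their choice, Calcr and Penk were already lower in RS3 than in C and AS. The summed level of the 11 genes was 289 ± 129 CPM in C, 322 ± 123 in AS, 192 ± 77.8 in RS3 and 115 ± 26.3 in RS7. Of 22 genes of motile cilia and ependyma, the cells that line the ventricle, 8 had an identifier, and their sum was 68.2 ± 8.39, 69.0 ± 12.1, 56.8 ± 7.06 and 45.5 ± 8.21 CPM. That sum had an r of 0.82 with the mean of the 100 genes within groups, and Crocc was its most abundant gene. The part of these genes in the result was not tested either. None of the listed genes of oligodendrocytes and their precursors, microglia, endothelium, mural cells, meningeal fibroblasts, blood or choroid plexus had an identifier, so these cell types could not be checked.

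The axon guidance and interferon lists held further genes beside the members. Of 19 guidance genes 10 had an identifier, of which 8, the member Slit2 included, correlated positively with the mean of the 100 genes within groups, and Robo1 and Epha4 negatively. Their sum, in which Epha4 was the most abundant, had an r of −0.52 and averaged 477 ± 36.4, 505 ± 24.4, 520 ± 29.7 and 531 ± 30.6 CPM in C, AS, RS3 and RS7. Robo1, which encodes a receptor for Slit2, averaged 60.9 ± 5.94, 56.4 ± 6.21, 59.6 ± 3.82 and 65.9 ± 1.22 CPM. Slit2 was chosen for a low RS7 mean and Robo1 was matched as a gene called different, so no relation between them was read. Nrp2, a semaphorin receptor, averaged 28.1 ± 4.23, 26.9 ± 3.52, 23.7 ± 5.39 and 18.1 ± 4.10 CPM. Of 25 genes of antigen presentation and interferon response 8 had an identifier, of which Irf1 and Lgals3bp were members chosen for a low RS7 mean. The sum of the 8, members included, averaged 146 ± 16.8, 163 ± 12.1, 145 ± 16.9 and 121 ± 7.26 CPM in C, AS, RS3 and RS7. Of 12 heat shock genes 3 had an identifier: Hspb8, Hspa1a at 4.15 ± 0.644, 3.47 ± 0.632, 3.60 ± 0.398 and 2.55 ± 0.570 CPM, and Hsph1 at 478 ± 62.3, 519 ± 34.1, 545 ± 39.0 and 563 ± 50.7 CPM. So the chaperone genes did not share 1 pattern.

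The remaining lists were described by the sign of their r with the mean of the 100 genes within groups, and the neuron lists also by their sums. The other genes that met the RS3 condition had a median r of 0.12, so a positive sign was common and says little alone. All 7 matched of 16 GABA neuron genes were positive, with a median r of 0.26, and all 4 of 10 glutamate neuron genes were negative, with a median of −0.68. Since matched genes had been called different between groups in these rats, group differences of the neuron sums follow from the matching. The GABA neuron sum averaged 841 ± 164, 884 ± 135, 637 ± 89.4 and 556 ± 70.0 CPM in C, AS, RS3 and RS7. The glutamate neuron sum, in which Slc17a6 was again the most abundant, averaged 635 ± 95.6, 683 ± 88.8, 782 ± 79.8 and 833 ± 93.1 CPM. Of 10 general neuron genes 3 were matched and negative, and their sum averaged 2540 ± 141, 2494 ± 146, 2788 ± 166 and 2882 ± 229 CPM. Of 12 astrocyte genes 3 were matched and 2 were positive, and of 20 hypothalamic transcription factors 4 were matched and 3 were positive. Of 12 imprinted genes 4 were matched and positive, and of 27 extracellular matrix genes 12 were matched and 10 were positive. Of 18 immediate early genes only Arc was matched (r = 0.06), and of 16 glucocorticoid response genes Cdkn1a (r = −0.58) and Klf9 (r = −0.50) were. The part of these genes in the result was not tested.

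Promoter windows from RefSeq (build GRCr8, from 250 bases before to 50 after the gene start) matched 20 of the 31 genes with a symbol, in 21 windows, since Esyt3 had 2. They were searched on both strands for TTCNNNGAA, the gamma interferon activation site (GAS) bound by STAT factors, for the half-site AGAACA of the glucocorticoid response element, and for the cyclic AMP response element TGACGTCA. The GAS letters stood in the windows of Irf1, Scn9a and Nbeal2, 3 of 21, and in 8.87% of all 33469 windows. The half-site stood in those of Slc27a3 and Hspb8, 2 of 21, and in 20.7% of all windows, and the cyclic AMP element in 0 of 21 and in 1.83% of all. With windows for 20 of the 100 genes, no comparison of the set with other genes was made. The windows with the GAS letters, in capitals, are shown because Irf1 is itself a known target of STAT factors; they lie at chr10:38417685-38417984 on the plus strand (Irf1), chr3:71701328-71701627 on the minus strand (Scn9a) and chr8:119511930-119512229 on the minus strand (Nbeal2).
Irf1: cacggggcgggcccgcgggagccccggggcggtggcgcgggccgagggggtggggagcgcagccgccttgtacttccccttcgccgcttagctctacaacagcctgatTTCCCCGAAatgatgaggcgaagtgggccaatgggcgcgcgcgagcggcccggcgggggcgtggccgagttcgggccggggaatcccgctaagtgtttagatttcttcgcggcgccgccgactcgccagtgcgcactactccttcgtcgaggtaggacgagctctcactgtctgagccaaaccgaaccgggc
Scn9a: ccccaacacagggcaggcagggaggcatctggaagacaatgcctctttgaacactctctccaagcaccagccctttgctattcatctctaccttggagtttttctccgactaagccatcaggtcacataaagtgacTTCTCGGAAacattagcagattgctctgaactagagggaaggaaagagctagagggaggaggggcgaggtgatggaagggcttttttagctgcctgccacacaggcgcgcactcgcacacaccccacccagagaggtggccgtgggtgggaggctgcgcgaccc
Nbeal2: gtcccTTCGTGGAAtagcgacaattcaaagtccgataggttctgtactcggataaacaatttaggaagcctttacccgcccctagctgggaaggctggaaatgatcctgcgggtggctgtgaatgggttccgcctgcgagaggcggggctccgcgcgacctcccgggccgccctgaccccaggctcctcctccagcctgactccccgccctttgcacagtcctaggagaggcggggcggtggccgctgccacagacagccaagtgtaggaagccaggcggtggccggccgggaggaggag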

How the data were processed

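RNA from rPH tissue blocks of 24 rats, 6 per group, was sequenced as polyA libraries with paired reads. Per the labels, the authors trimmed reads with Trimmomatic 0.36, mapped with HISAT2 2.0.5 (build rn6), ran featureCounts against an Ensembl annotation and deposited unnormalized counts. Strandedness and the treatment of multi-mapping reads are not given in the sources used here, so overlapping or duplicated genes may share reads. CPM was computed here from library totals, and 20 rats entered each test except in alternatives with all 24 rats or without 1 rat. Members and gene lists were chosen with earlier results of these data known. All lists had identifiers for under 80% of their genes, so they were to be named by their matched genes only. Their sums and correlations were added after the values were seen. Symbols came from a supplementary list of the paper, of genes it reported as different between groups. That list was used only as an identifier map (779 of 808 identifiers had a symbol). Named genes were members with a symbol among the 30 largest drops, in a listed pathway, without overlap between RS7 and the 15 other rats, or lowest in left-out rat 1 by 1.2-fold.

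Differential expression used edgeR 4.0.16 in R 4.3.3 (filterByExpr with a minimum count of 10, TMM, robust quasi-likelihood test, adjusted p of 0.05 or less), with DESeq2 1.42.0 as an alternative. Both were also run on simulated data with changes larger than most drops described here, so calls of such small changes were not checked. Correlations used log2 of CPM plus 0.5.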

Additional observations from a re-analysis of the deposited data

Results flagged for a closer look

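In 84 groups of 5 rats (18 named genes, the median deviation of the 100 genes, the total count and the share of the 10 most counted genes, in each of 4 groups), 4 had a rat far from the rest of its group, and chance gives about 1 in 20. Wscd2 in RS7 was lowest in rat 5, at 3.02 CPM, with the next rat at 4.72 CPM. Spint2 in C was highest in rat 19, at 24.5 CPM, with the next at 19.7 CPM. Mgst1 in RS7 was highest in rat 2, at 13.2 CPM, with the next at 9.30 CPM, so that this rat lay within the range of the other groups. The 10 most counted genes took 18.8% of the counts in RS7 rat 4, with 14.0% in the next RS7 rat.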

How the results depend on the processing

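Which genes make up the 100 depended on the settings, and the cause was not tested. With TMM-scaled library sizes 79 of the 100 were chosen again, with DESeq2 size factors 78 and with the mean of log2 CPM 84. Group medians kept 43, a minimum of 1 CPM 30, a minimum of 10 CPM 55, a tolerance of 0.05 on RS3 51, a tolerance of 0.2 63, and all 24 rats 58. Leaving out 1 rat kept 53 to 85, fewest without RS3 rats 7 (53), 9 (55) and 11 (62), and 11 genes were chosen under every such choice, among them Wscd2, Greb1, Mgst1, Npr2, Slc27a3, Zfta, Nynrin, Irf1 and Hspb8. The median drop of the original 100 stayed between 0.27 and 0.36 without 1 rat and was 0.27 with TMM. No drop of a gene with a symbol changed sign in 775 recomputations, but some moved by over 1.5 times, and the cause was not tested. With group medians Spint2 was at 0.18 (0.40 with group means), Scn9a at 0.17 (0.32), Sbk1 at 0.08 (0.32), Ampd2 at 0.15 (0.26) and Nbeal2 at 0.38 (0.25). With all 24 rats Scn9a was at 0.21. Without RS3 rat 7 Scn9a was at 0.20 and Anxa7 at 0.16 (0.26), and without RS3 rat 11 Sbk1 was at 0.19.

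Genes as far above in RS7 as the last of the 100 was below numbered 66 with TMM, 69 with size factors and 4 to 15 without 1 rat (15, 13 and 11 without RS3 rats 9, 10 and 7, 12 without RS7 rat 5, and 4 without C rat 22, AS rat 15 or RS3 rat 11), alternatives chosen after seeing the data, as were those for genes without overlap, for rats 8 and 20 only and for the median r. Genes without overlap numbered 1 to 6 without 1 rat, and the share of all genes of 5 CPM or more without overlap also varied. Without RS7 rats 2, 3, 4 and 6 they numbered 6, 5, 4 and 3, where 0.29%, 0.185%, 0.153% and 0.0805% of all genes had none. Without C rat 22 they numbered 4 (0.161%), and 2 without C rats 21 and 23 (0.0564% each), AS rat 13 (0.0725%) or RS3 rat 12 (0.0644%). Without RS3 rat 9 they stayed at 1, while the share of all genes was 0.137%. Compared with rats 8 and 20 only, rat 1 was lower in 88 of the 100 (77.3% of all genes), and by 1.2-fold in 66 (41%). With TMM these were 63 (36.6%) and 31 (11.8%), and with size factors 66 (38.4%) and 33 (12.5%), so they depended on the scaling. The median r was between 0.62 and 0.67 without 1 rat. With size factors the count by 1.2-fold against all 3 left-out rats was 10 (2.34% of all genes), and with TMM 8 (1.86%).

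In C versus AS, 0 of the 100 were called under each alternative run. In RS7 versus AS, DESeq2 called 21 of the 100 and 173 genes in all lower, and all 24 rats gave 2 and 22. Without 1 rat edgeR called 0 to 19 of the 100 and 5 to 144 genes in all lower. Fewest of the 100 were called without AS rats 14 (1, 7 in all), 16 (2, 22) and 17 (0, 5). Few were also called without RS7 rats 3 (4, 16), 5 (2, 14) and 6 (2, 10). In RS7 versus C, DESeq2 called 13 of the 100 and 125 genes in all lower. There edgeR called 13 in all lower with no filter and 10 with all 24 rats. Genes called higher are left out of all these counts. Without 1 rat edgeR called 0 to 16 of the 100 and 0 to 277 genes in all lower. Most of the 100 were called without RS7 rat 4 (16, 277 in all) and C rat 23 (4, 104). Next came C rat 22 (2, 7) and RS3 rat 11 (2, 19). None of the 100 was called without C rats 19 and 21 or RS7 rats 2, 3, 5 and 6. There 2 genes in all were called lower without RS7 rat 2 and 0 without the others. These fits tested 16299 to 16327 genes. In RS3 versus C, DESeq2 called 18 genes in all lower, and edgeR 0 to 8 without 1 rat, none of them among the 100. No paired analysis was possible, as each rat belongs to 1 group. Levels were lowest, among genes with a symbol, for Esyt3, Rtbdn and Irf1, with means of 5.07, 5.13 and 5.44 CPM.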
